A study of Homo sapiens with 6 samples.

Results

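The 10 genes described here encode carriers that move amino acids across the plasma membrane. They were chosen by symbol from the known carrier families, and all 10 were found among the 58656 gene rows of the deposited tables and were among the 16481 genes tested. RNA sequencing was done on MDA-MB-231, an established line of triple-negative breast cancer cells, in 3 libraries given mitocurcumin, a derivative of the plant compound curcumin directed to mitochondria, at 5 µM for 9 hours. The other 3 libraries were from cells given only the vehicle DMSO for 9 hours. Both groups were grown in the same serum-supplemented DMEM, and only this cell line, 1 dose and 1 time were measured. The labels call the replicates biological without naming separate cultures, so the p-values reflect only how far these libraries differ within a group, which may be technical.

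Amino acid carriers of the plasma membrane differ in what they carry and in what drives them. Sodium-coupled carriers concentrate small neutral amino acids such as alanine, serine and glutamine in the cell, and exchangers then trade these for leucine and other large neutral amino acids, so the families work in series. Genes of several of these families are known targets of ATF4, the transcription factor made when the kinases of the integrated stress response phosphorylate eIF2alpha.

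The libraries held 23146822 to 29104681 counts, and the first principal component, with 51.6% of the variance, separated the treatments. Control replicate 1 lay apart on the next component, at 31.3 against -17.2 to 8.76 for the other libraries. All 6 markers of MDA-MB-231 were present, with a summed level of 6572 to 6658 CPM (counts scaled to the library total) in control and 6626 to 6984 CPM in mitocurcumin libraries. Of 6 genes expected to be low in the line, ESR1, PGR and KRT5 stayed under the filter on low counts, while EPCAM (22.3 CPM in the control mean), ERBB3 (4.18 CPM) and CDH1 (1.69 CPM) passed it and were not called. Of 12 markers of other cell types, 5 had a mean of at least 1 CPM and HBB and INS were at 0 counts. Their sum was 128 to 142 CPM in control and 92.2 to 116 CPM in mitocurcumin libraries, most of it from CD68, which passed the test as lower (-0.29 ± 0.07), as did PECAM1 (-1.01 ± 0.14). Of 4 nuclear RNAs, whose sum was 4505 to 5420 CPM in control and 4962 to 7321 CPM in mitocurcumin libraries, NEAT1 was higher (0.65 ± 0.07). MALAT1, the most abundant of them, was not called. It stood at 5319 CPM in mitocurcumin replicate 3 and at 3096 to 4073 CPM in the other libraries. The part of these differences in the transporter results was not tested.

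After mitocurcumin, 8 of the 10 transporter mRNAs were higher and 0 were lower, where 14.7% of all tested genes were higher and 17.8% lower at an adjusted p under 0.05 in edgeR's quasi-likelihood test. SLC1A4 rose most, 3.96-fold, followed by SLC7A5, SLC6A9, SLC1A5 and SLC43A1, each by more than 2-fold. SLC38A2, SLC38A1 and SLC7A1 rose by less than 2-fold. SLC7A6 and SLC36A1 did not pass the test. At least a 2-fold rise was called in 5 of the 10, against 2.25% of all tested genes.

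The median log2 change of the 10 was 0.96, beside -0.006 over all tested genes. All 8 higher members had every mitocurcumin value above every control value, as did 21.2% of tested genes. The other 2 had every mitocurcumin value below every control value, as did 23.7% of tested genes. At an unadjusted p under 0.05, 1 member was lower in edgeR, and DESeq2 and limma voom also called 0 lower. The genes were chosen with earlier results of these data known, so these counts are a description of the set. In bulk RNA, fewer cells of a type and less RNA per cell cannot be told apart.

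**Figure D1:**
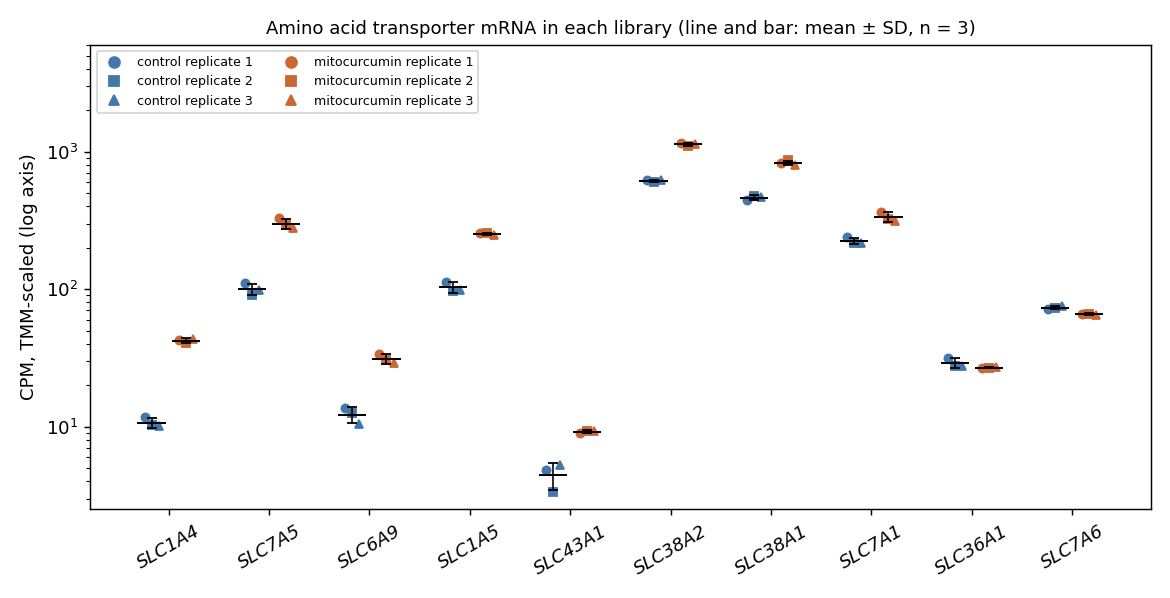
Level of each transporter mRNA in each of the 6 libraries, in CPM on a log axis, ordered by fold change. Points are libraries, lines and bars the mean ± SD of 3. For the 8 genes at the left, from SLC1A4 to SLC7A1, all mitocurcumin points lie above all control points, and for SLC36A1 and SLC7A6 they lie just below.

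Start site windows of these genes were read as a description, and any part of a sequence motif in the rises was not tested. RefSeq (GRCh38.p14) gave 16 windows for the 10 genes, each from 250 bases before to 50 bases after a transcript start. They were searched on both strands for TGATGNAA, the core of the composite site that ATF4 binds with C/EBP proteins. At least 1 match was found in 4 members, in 4 of the 16 windows, where a match was held by 3.62% of all 35116 windows and by 2.23% of the 18054 windows of tested genes. The following stretches, 5′ to 3′ on the gene's strand, show the match in capitals, with the partner gene SLC3A2 added.
SLC7A1: gggcgcactgcTGATGAAAcctggcgccgg
SLC38A1: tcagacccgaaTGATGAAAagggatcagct
SLC1A4: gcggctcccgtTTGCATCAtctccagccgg
SLC1A5: gaggaagtggcTGATGCAAgctgtccaggg
SLC3A2: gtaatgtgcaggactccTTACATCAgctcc
The stretches lie at chr13:29595663-29595692, chr12:46266502-46266531, chr2:64989381-64989410, chr19:46784893-46784922 and chr11:62881719-62881748. Those of SLC1A4 and SLC3A2 carry the match on the opposite strand. With the first transcribed base as 1, the match of SLC7A1 starts at 8, in the transcribed part, and that of SLC38A1 at -4. Both windows of SLC38A1 lie at RefSeq starts that hold no start of a GENCODE v29 transcript of this gene, the nearest being 1185 bases from the start used for the match, so its position rests on RefSeq alone. All 14 windows of the other members held a GENCODE start. In SLC1A4 the match starts at -7 of a second transcript start, and in SLC1A5 at -97 of the third start. In SLC3A2 it starts at 38, in the transcribed part, in 1 of 3 windows. The windows of SLC3A2 were not checked against GENCODE starts. All 4 members with a match were among the 8 that rose. As 8 of the 10 members rose, this does not set them apart. The other 4 that rose, SLC7A5, SLC6A9, SLC43A1 and SLC38A2, had no match in their windows.

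The E-box CACGTG, a palindrome bound by MYC and by related factors, was found in windows of SLC7A5, SLC43A1, SLC1A5 and SLC36A1, in 4 of the 16 windows against 7.26% of all windows and 8.86% of those of tested genes. No window of a member held both motifs. The 250 bases before the SLC7A5 start (chr16:87869508-87869757, minus strand) are shown because this gene rose most among the SLC7 members, with its E-box, which starts at -130, in capitals.
SLC7A5: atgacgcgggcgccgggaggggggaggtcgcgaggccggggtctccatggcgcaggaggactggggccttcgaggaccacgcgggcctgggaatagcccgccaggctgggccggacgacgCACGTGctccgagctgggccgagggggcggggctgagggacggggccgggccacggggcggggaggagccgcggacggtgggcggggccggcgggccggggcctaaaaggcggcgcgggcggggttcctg
The windows of SLC36A1, which did not pass the test, held 2 such E-boxes at the second start:
SLC36A1: cgctcaagggagCACGTGacctcggcctct
SLC36A1: gggcggtgggatCACGTGatgaggtccgga
These stretches lie at chr5:151447548-151447577 and chr5:151447583-151447612. A match describes the letters in these windows and not binding.

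The ASCT exchangers, which swap alanine, serine, cysteine and threonine together with sodium, both rose. SLC1A4, or ASCT1 (Entrez 6509, chromosome 2, 64988479 to 65023865, GRCh38), measured 11.7, 10.2 and 10.1 CPM in control replicates 1 to 3 and 42.6, 40.3 and 43.8 CPM in mitocurcumin replicates 1 to 3. The lowest treated value lay more than 3-fold above the highest control value. Its log2 change was 1.98 ± 0.10 (SE, n = 3 and 3; edgeR adjusted p = 1.7e-10), and it ranked 70 of 16481 genes by rise.

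SLC1A5, or ASCT2, which also carries glutamine and is a main glutamine entry route of many tumour cells (Entrez 6510, chromosome 19, 46774883 to 46788594), measured 113, 97.0 and 99.0 CPM in control and 257, 256 and 249 CPM in mitocurcumin libraries. The treated libraries lay close together, with an SD of 4.34 CPM, and far above the controls. The change was 1.30 ± 0.06 (edgeR adjusted p = 1.2e-10). The log2 change was larger for SLC1A4 than for its paralog. Within a library, the log2 ratio of SLC1A4 to SLC1A5 was -3.16 ± 0.02 (SD, n = 3) in control and -2.56 ± 0.08 in mitocurcumin libraries, without overlap (two-sided exact permutation p = 0.1, adjusted p = 0.14 over 7 pairs).

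SLC7A5 and SLC43A1, which both carry leucine, also rose, while SLC43A2, or LAT4, a relative of SLC43A1 outside the set, was not called (-0.04 ± 0.19). SLC7A5, or LAT1, exchanges intracellular glutamine for leucine and other large neutral amino acids (Entrez 8140, chromosome 16, 87830023 to 87869507). Its levels were 110, 91.2 and 98.1 CPM in control and 327, 291 and 278 CPM in mitocurcumin libraries. Replicate 1 was the highest library in each group, and the groups were far apart. The log2 change was 1.58 ± 0.07 (edgeR adjusted p = 1.9e-10), rank 130 by rise.

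LAT1 reaches the membrane only with the heavy chain SLC3A2, also called CD98hc, a gene outside the set of 10. SLC3A2 measured 61.0, 49.2 and 53.6 CPM in control and 197, 174 and 179 CPM in mitocurcumin libraries, a change of 1.75 ± 0.08 (edgeR adjusted p = 6.4e-11). Its profile was the most similar to that of SLC7A5 among 11163 genes with a mean of at least 5 CPM, with a Pearson r of 0.999 over the 6 libraries, and LURAP1L followed. Because treatment sets most of the spread, 139 genes reached an r of 0.99 with SLC7A5, so the likeness is a description. The log2 ratio of SLC7A5 to SLC3A2 went from 0.86 ± 0.02 to 0.70 ± 0.06 (SD, n = 3), a difference of -0.16 with an exact permutation p of 0.1.

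SLC43A1, or LAT3, a facilitative carrier of leucine and other branched-chain amino acids that needs no heavy chain, was the least abundant member (Entrez 8501, chromosome 11, 57484534 to 57515702). Its levels were 4.83, 3.33 and 5.25 CPM in control and 8.98, 9.33 and 9.32 CPM in mitocurcumin libraries. The controls were widely spread for their size, at a coefficient of variation of 22.6% against 2.20% in the treated libraries, and the groups did not overlap. The change was 1.05 ± 0.17 (edgeR adjusted p = 1.4e-04), with the largest standard error of the 10 and a range of 0.88 to 1.19 over the alternatives. The log2 ratio of SLC7A5 to SLC43A1 was 4.22 ± 0.22 in control and 4.87 ± 0.15 in mitocurcumin libraries (SD, n = 3; exact permutation p = 0.1).

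The remaining SLC7 members carry arginine and lysine, and only 1 of them rose. SLC7A1, or CAT1, the main carrier for cationic amino acids (Entrez 6541, chromosome 13, 29509414 to 29595688), measured 238, 216 and 217 CPM in control and 367, 325 and 312 CPM in mitocurcumin libraries. This was the smallest called rise of the set, 1.49-fold, yet all treated libraries exceeded all controls. The log2 change was 0.58 ± 0.06 (edgeR adjusted p = 3.6e-06). SLC7A2, another SLC7 gene outside the set, was called lower (-0.362 ± 0.075, edgeR adjusted p = 0.0013) and was named after its value was seen.

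SLC7A6, or y+LAT2, exports arginine in exchange for neutral amino acids and shares the heavy chain SLC3A2 with LAT1 (Entrez 9057, chromosome 16, 68264526 to 68301819). It measured 72.2, 72.6 and 75.6 CPM in control and 66.1, 66.5 and 65.4 CPM in mitocurcumin libraries. The treated values were all slightly below the controls, and the spread within each group was small. The log2 difference was -0.15 ± 0.06, with a 95% interval of -0.28 to -0.03 before adjustment, and it missed the threshold (edgeR adjusted p = 0.061). Without control replicate 1 it was called lower, at -0.17 (edgeR adjusted p = 0.0301, in a range of 0.0301 to 0.204 over 14 alternatives). SLC7A6 overlaps SLC7A6OS on the opposite strand, which measured 44.6 and 42.6 CPM in the group means, and no source used here says whether reads were counted by strand.

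The ratios of these SLC7 carriers to each other were also read within each library. The log2 ratio of SLC7A5 to SLC7A6 was 0.60, 0.32 and 0.37 in control and 2.29, 2.11 and 2.07 in mitocurcumin libraries. That is a shift of 1.72, the largest of the 7 ratios compared. The log2 ratio of SLC7A1 to SLC7A5 moved the other way, from 1.16 ± 0.07 to 0.16 ± 0.004 (SD, n = 3). Neither ratio overlapped between groups, each with an exact permutation p of 0.1 and an adjusted p of 0.14. The smallest p that 3 libraries against 3 allow is 0.1, so no ratio could pass the threshold.

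**Figure D2:**
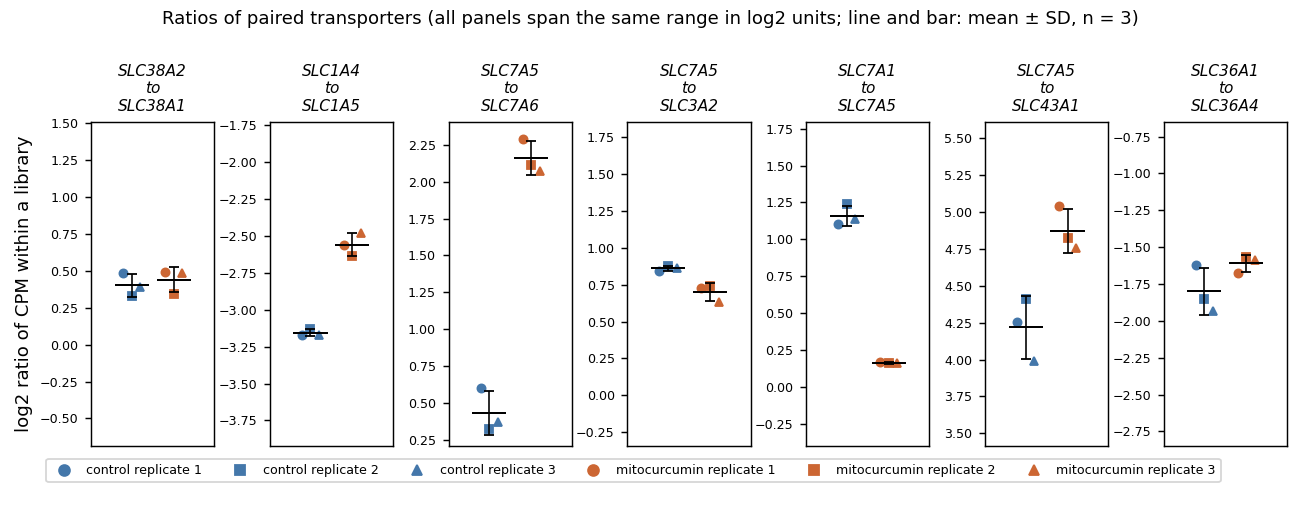
Log2 ratio of paired transporters within each library, with 1 panel per pair on equal spans; points are libraries, lines and bars the mean ± SD of 3. Control and mitocurcumin points are apart in 5 of the 7 panels and mingle for SLC38A2 to SLC38A1 and for SLC36A1 to SLC36A4.

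The SNAT carriers, which use the sodium gradient to take up glutamine, alanine and serine, were the most abundant members and rose by similar amounts. SLC38A2, or SNAT2, the carrier classically induced when cells lack amino acids (Entrez 54407, chromosome 12, 46358188 to 46372773), measured 619, 601 and 617 CPM in control and 1159, 1098 and 1129 CPM in mitocurcumin libraries. Its replicates were the tightest of the set in control, with a coefficient of variation of 1.59%. The log2 change was 0.88 ± 0.05 (edgeR adjusted p = 1.5e-09).

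SLC38A1, or SNAT1 (Entrez 81539, chromosome 12, 46183063 to 46269043), measured 442, 478 and 469 CPM in control and 823, 864 and 805 CPM in mitocurcumin libraries. The groups were as clearly apart as those of SLC38A2. The change was 0.84 ± 0.05 (edgeR adjusted p = 6.0e-09). The log2 ratio of SLC38A2 to SLC38A1 was 0.49, 0.33 and 0.39 in control and 0.49, 0.35 and 0.49 in mitocurcumin libraries. The difference of 0.04 was smaller than the SD in either group, 0.08 in both (exact permutation p = 0.5).

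Both genes lie on the minus strand of chromosome 12, 89144 bases apart, and SLC38A4, a carrier of the same family, lies a further 391987 bases on. SLC38A4 went the opposite way, from 16.4, 15.8 and 19.9 CPM in control to 7.08, 7.89 and 7.38 CPM in mitocurcumin libraries. Its change was -1.22 ± 0.13 (edgeR adjusted p = 1.4e-06).

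The glycine carrier rose and the proton-coupled carrier did not pass the test. SLC6A9, or GlyT1, which takes up glycine with sodium and chloride (Entrez 6536, chromosome 1, 43996483 to 44031462), measured 13.6, 12.6 and 10.5 CPM in control and 33.8, 30.4 and 29.1 CPM in mitocurcumin libraries. Every treated value was more than 2-fold above every control value. The change was 1.34 ± 0.11 (edgeR adjusted p = 1.3e-07). SLC6A9 overlaps CCDC24 on the opposite strand, whose group means were 1.89 and 2.41 CPM.

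SLC36A1, or PAT1, moves small amino acids together with protons and works at the lysosome as well as the cell surface (Entrez 206358, chromosome 5, 151437046 to 151492379). It measured 31.8, 27.6 and 27.6 CPM in control and 26.7, 26.8 and 27.3 CPM in mitocurcumin libraries. Only control replicate 1 stood clearly above the treated libraries. The log2 difference was -0.11 ± 0.09, with a 95% interval of -0.30 to 0.09 (edgeR adjusted p = 0.41). Its log2 ratio to SLC36A4, a related carrier called lower (-0.29 ± 0.06), was -1.80 ± 0.16 in control and -1.61 ± 0.06 in mitocurcumin libraries, which overlapped (SD, n = 3; exact permutation p = 0.2).

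To compare the members with each other, CPM was divided by the length of the principal GENCODE transcript in kilobases. SLC38A2 ranked first in both groups, at 125 ± 1.99 CPM per kilobase in control and 231 ± 6.28 in mitocurcumin libraries (SD, n = 3). SLC38A1 followed at 57.4 ± 2.34 and 103 ± 3.74, and SLC1A5 at 35.8 ± 3.08 and 88.0 ± 1.51. SLC7A1 was ahead of SLC7A5 in control, at 30.5 ± 1.70 against 22.0 ± 2.12, and behind it after mitocurcumin, at 45.5 ± 3.93 against 65.8 ± 5.52. No neighbours in the control order overlapped.

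Lower in the order, SLC7A6 stood at 11.6 CPM per kilobase in control and 10.5 in mitocurcumin libraries. SLC6A9 reached 9.94 and SLC1A4 9.25 CPM per kilobase after mitocurcumin, from 3.91 and 2.34 in control. In the treated order SLC7A6 overlapped SLC6A9, and SLC6A9 overlapped SLC1A4. SLC36A1 had 5.01 and 4.65 CPM per kilobase, and SLC43A1 was last at 1.72 and 3.55. With the median protein-coding transcript as the length instead, ranks 1 to 5 and 10 stayed as they were in both groups. SLC7A6 and SLC36A1 then changed places in both groups, and SLC6A9 and SLC1A4 did so after mitocurcumin.

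The 10 genes summed to 289 to 303 CPM per kilobase in control and 558 to 589 in mitocurcumin libraries. Of the added level, SLC38A2 made up 38.3%, SLC1A5 18.9%, SLC38A1 16.6% and SLC7A5 15.9%. SLC1A4, the member with the largest fold change, made up 2.51% of it. These shares use the principal transcripts and move with the length chosen. For SLC38A1 that length is 8066 bases, against 2897.5 for the median protein-coding transcript. The order of SLC1A5 and SLC38A1 rests on that choice, and shares with median lengths are not given.

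**Figure D3:**
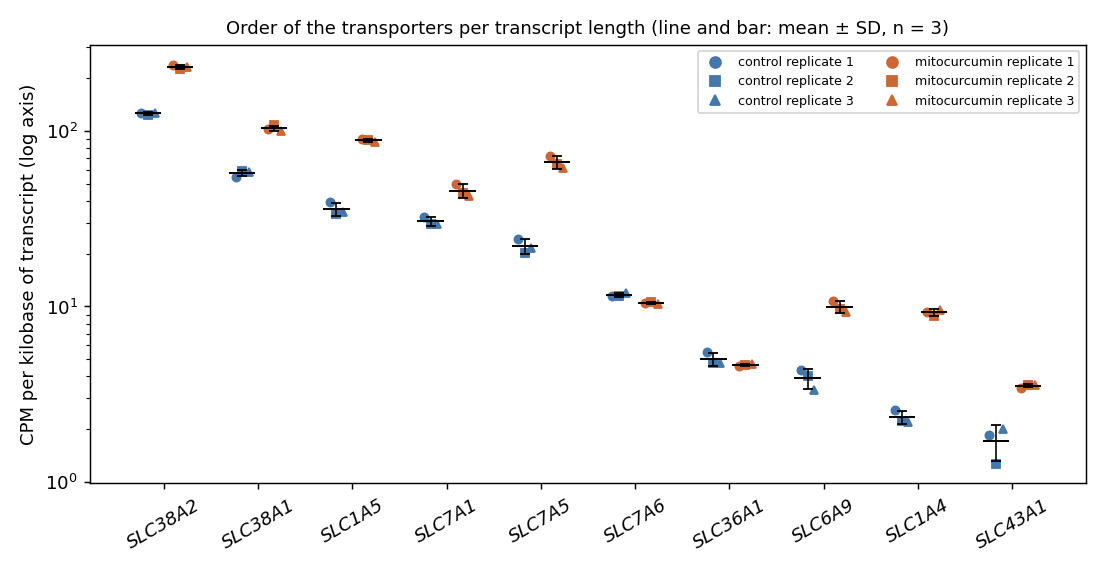
CPM per kilobase of transcript for each transporter, on a log axis, ordered by the control mean. Points are libraries, lines and bars the mean ± SD of 3. SLC38A2 is highest in both groups, and SLC7A5 lies below SLC7A1 in control and above it after mitocurcumin.

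Among the 41 other carrier genes listed for the plasma membrane, 24 passed the filter on low counts. Of those, 3 were higher and 8 lower, with a median log2 change of -0.16, beside 14.7% higher and 17.8% lower of all tested genes. The list is not limited to amino acid carriers, as SLC15A1, SLC15A2 and SLC43A3 belong to it. SLC36A4, 1 of the 8 lower genes, and SLC7A14 are also on the list of lysosomal carriers below. The higher genes were SLC7A11, SLC3A2 and SLC6A20. SLC7A11, the cystine/glutamate exchanger that also uses the SLC3A2 heavy chain, measured 57.3, 61.1 and 62.7 CPM in control and 346, 342 and 352 CPM in mitocurcumin libraries, a rise of 2.52 ± 0.06. SLC6A20, a proline carrier at 1.56 ± 0.21 and 2.57 ± 0.24 CPM (SD, n = 3), rose by 0.73 ± 0.24 (edgeR adjusted p = 0.0274). It no longer passed without control replicate 2 (0.66, edgeR adjusted p = 0.0821), without mitocurcumin replicate 2 (0.72, edgeR adjusted p = 0.0724) and without mitocurcumin replicate 3 (0.67, edgeR adjusted p = 0.102). DESeq2 also lost it (0.73, adjusted p = 0.0575), in a range of 0.0217 to 0.102.

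The lower genes included 2 glutamate carriers of the SLC1 family, which also holds the ASCT exchangers. SLC1A1, or EAAT3, went from 5.38 ± 0.69 to 3.28 ± 0.52 CPM, a change of -0.71 ± 0.19 (edgeR adjusted p = 0.0075). SLC1A3, or EAAT1, went from 10.1 ± 1.30 to 6.22 ± 0.11 CPM, a change of -0.69 ± 0.14 (edgeR adjusted p = 0.0011). SLC38A4, described above, had the largest decrease. SLC3A1, the heavy chain of a different set of exchangers, changed by -0.60 ± 0.16 and was named after its value was seen. Of the lower calls, that of SLC43A3 was lost without mitocurcumin replicate 3 (-0.17, edgeR adjusted p = 0.0686) and that of SLC6A6 without mitocurcumin replicate 2 (-0.20, edgeR adjusted p = 0.0536); both were named after their values were seen.

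**Figure D4:**
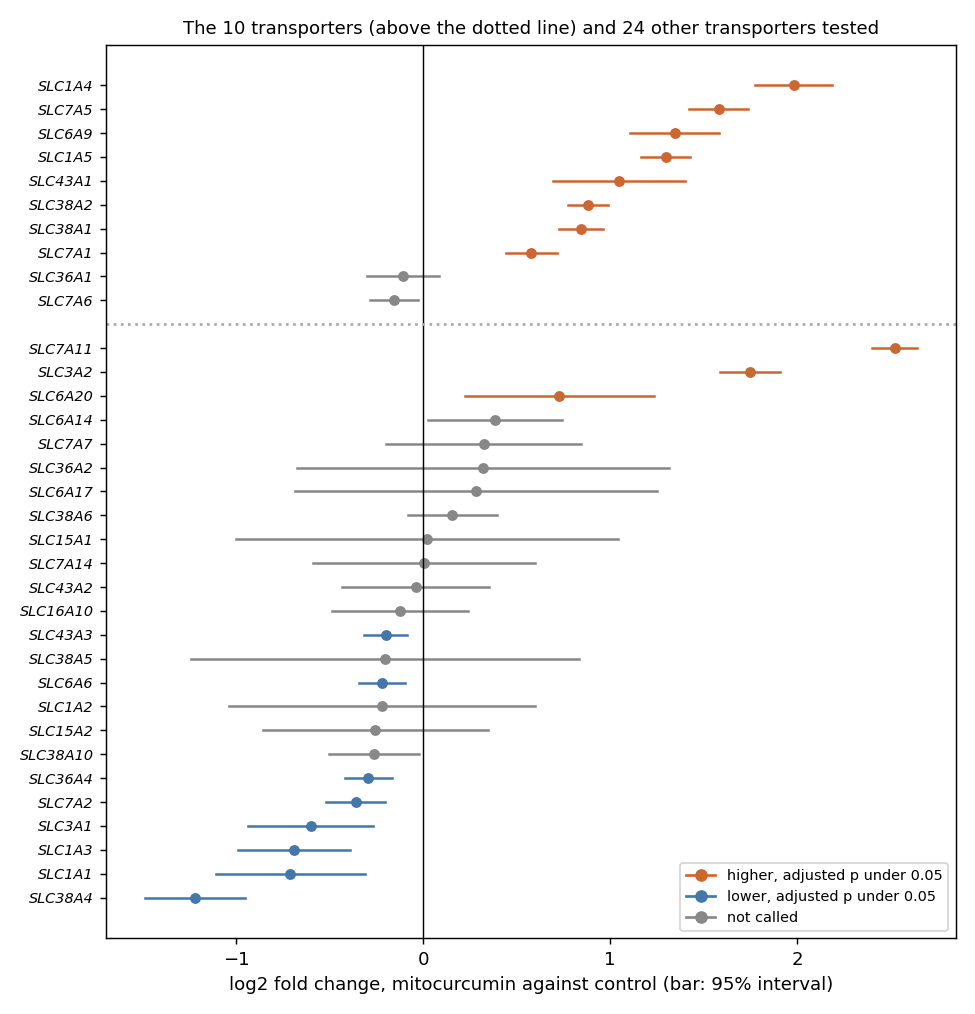
Log2 fold change of the 10 transporters, above the dotted line, and of the 24 other listed transporters that were tested, with 95% intervals before adjustment. Orange genes were called higher, blue genes lower and grey genes were not called. The set of 10 holds 8 orange and 0 blue genes, the other carriers 3 orange and 8 blue.

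Most carriers of the lysosomal membrane did not pass the test. Of 11 listed genes, all tested and including SLC36A1, edgeR called 0 higher, also at an unadjusted p under 0.05, and 1 lower, SLC36A4, where 14.7% of all tested genes were higher and 17.8% lower. Their median was 0.006. DESeq2 and limma voom were run on the same genes, and no gene of this list changed its call in any of 14 alternatives.

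The genes next to the 10 members were read to see whether the rises extended to their surroundings. Of 49 other gene rows that overlap a member or lie within 50000 bases of one, 20 were tested, with changes from -0.65 to 0.36. In edgeR 0 of the 20 were higher, also at an unadjusted p under 0.05, and 1 was lower, PRMT7 near SLC7A6, named after its value was seen; the shares over all tested genes were 14.7% and 17.8%. SLC7A5P2, a pseudogene copy of SLC7A5 elsewhere on chromosome 16, had estimated counts of 49.0 to 87.0 in control and 110 to 122 in mitocurcumin libraries. It was called higher (0.65 ± 0.21, edgeR adjusted p = 0.023). SLC7A5 itself had 2300 to 8079, and how many reads the 2 rows share was not measured.

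Known transcriptional regulators of amino acid carriers mostly rose. Of 16 listed genes, 15 were tested, and 12 were higher and 1 lower, E2F1, named after its value was seen, with a median of 1.23, against 14.7% higher and 17.8% lower over all tested genes. ATF4 measured 132, 144 and 128 CPM in control and 334, 352 and 316 CPM in mitocurcumin libraries, a rise of 1.31 ± 0.06. Its dimer partners CEBPG and CEBPB rose by 1.54 ± 0.06 and 1.41 ± 0.10. DDIT3, the stress factor CHOP, rose by 2.94 ± 0.14, ATF3 by 2.56 ± 0.16 and NUPR1, a stress-induced chromatin protein, by 2.63 ± 0.19. TRIB3, a pseudokinase that restrains ATF4, had the largest rise of the list, 3.86 ± 0.11. This list was chosen with earlier results known.

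Genes alike in profile were read for SLC1A4 and SLC6A9 as well. For SLC1A4 they were PSPH, the last enzyme of serine synthesis, and AARS1, the alanyl-tRNA synthetase, with a Pearson r of 0.9998 and 0.9997 over the 6 libraries. PSPH went from 27.1 to 81.6 CPM and AARS1 from 96.5 to 277 CPM in the group means. For SLC6A9 they were HAX1 and AMMECR1L, at 0.9989 and 0.9981. An r of 0.99 was reached by 168 genes with SLC1A4 and by 61 with SLC6A9.

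Genes that sense amino acids upstream of mTORC1, the growth kinase that leucine and arginine activate, went both ways. Of 16 listed, 15 were found and tested, with 5 higher and 4 lower and a median of 0.17, against 14.7% and 17.8% over all tested genes. SESN2, the leucine sensor, rose by 3.31 ± 0.13, and FLCN and RRAGC, which act on the lysosomal Rag GTPases, by 0.96 ± 0.10 and 0.83 ± 0.06. FNIP1, the partner of FLCN, rose by 0.64 ± 0.06. SESN3, a related sestrin, changed by -0.59 ± 0.15, and CASTOR2, of the family of arginine sensors, by -0.58 ± 0.13. EIF2AK4, or GCN2, the kinase that senses uncharged tRNA, was also called lower (-0.17 ± 0.05, edgeR adjusted p = 0.024) and was named after its value was seen. Its call was lost without control replicate 2 or 3 and without mitocurcumin replicate 1, 2 or 3, and with upper quartile scaling, with an edgeR adjusted p of up to 0.16.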

How the data were processed

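The 6 libraries were made from poly(A) RNA with a stranded KAPA kit, per the labels' protocols. Reads were placed on GRCh38, according to the submitters' processing notes. Gene rows follow RefSeq, per the file headers. Aligner, counter and use of strand: not given in the sources used here. In the deposited table, raw values are estimated counts per gene, of which 20.4% to 21.7% of those above 0 were whole. The deposited log2 values equal the raw value over a per-library factor, on the log2 scale, and values that would fall below 0 are listed as 0.

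Columns were matched to samples by treatment word and replicate number. The column of mitocurcumin replicate 2 carries a sample number out of sequence with the others, for which no reason was found. Estimated counts were rounded, a step the design had not foreseen, and edgeR 4.0.16 under R 4.3.3 was used (quasi-likelihood F-test, robust, TMM scaling, filterByExpr at count 10 and total 15), with the group as the only term. P-values are two-sided and were adjusted by Benjamini-Hochberg over 16481 genes, and a gene was called at an adjusted p under 0.05. Changes are log2 fold changes ± SE, mitocurcumin against control. CPM uses TMM-scaled totals of the tested genes, and marker sums use the full totals. Lengths came from GENCODE release 29 (GRCh38). Ratios are log2 of CPM plus 1, tested by exact permutation over 6 libraries. Tested on simulated data with 16261 genes, modelled on this comparison, the fit recovered 71% of 1.5-fold and 86% of 2-fold changes, with 6 false among 163 calls. Only 100 genes were changed at each fold, all above a floor on counts. Far more genes were called in the data, so these rates need not hold there.

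Members and lists were chosen with earlier results of these data known. The naming rule took all 10 members and SLC3A2, SLC7A11 and ATF4. It also took up to 6 called genes with the largest change per list, and the 2 genes most alike to each of the 3 members that changed most. SLC43A2 falls outside this rule, as do the genes marked as named after their values were seen. Alternatives were other scalings, other filters, DESeq2 1.42.0, limma 3.58.1 (voom, and on the authors' log2 values), a replicate term, each library left out and a threshold of 0.01.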

Additional observations from a re-analysis of the deposited data

How the results depend on the processing

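The 8 rises kept their direction and their call under all 14 alternatives tried for each gene, and also at a threshold of 0.01. The count of lower members was 0 to 1 with libraries left out, the 1 being SLC7A6 without control replicate 1. Deviations of same-numbered libraries of the 2 groups had correlations of 0.101, 0.017 and -0.01, against -0.109 to 0.091 for libraries of unlike number. With 3 libraries a group, these values cannot show whether the numbers mark a pairing. With the replicate number as a block, 8 members were higher and 0 lower, with 2643 genes higher and 3163 lower over all genes against 2425 and 2938 without it. The log2 ratio of SLC1A4 to SLC1A5 differed between groups by 0.66 with a pseudocount of 0.25, against 0.60 with a pseudocount of 1. With libraries left out the ratio of SLC38A2 to SLC38A1 differed by 0.002 to 0.087. The median change over all genes lay between -0.009 and 0.022 in every alternative, so no scaling moved it by 0.1. Changes under 1.5-fold were not simulated, so the share of these that 3 libraries a group recover was not measured.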

Other observations

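Genes that act on transporter proteins after their synthesis were read as a further list. Of 11 genes, all tested, 6 were higher and 2 lower, with a median log2 change of 0.18 over a background of 14.7% higher and 17.8% lower. TXNIP, named after its value was seen, was among the higher genes but missed the threshold with control replicate 2 left out (0.17, edgeR adjusted p = 0.0565). NIBAN1, a stress-induced adaptor known as FAM129A, rose by 1.06 ± 0.06, from 179 ± 7.63 to 374 ± 14.1 CPM (SD, n = 3; edgeR adjusted p = 3.2e-10). ARRDC4 and ARRDC3, arrestin-like adaptors of ubiquitin ligases, rose by 0.88 ± 0.14 and 0.43 ± 0.06. NEDD4, a ubiquitin ligase, rose by 0.78 ± 0.06, from 190 ± 12.1 to 326 ± 7.38 CPM. NEDD4L rose by 0.42 ± 0.05. PACSIN3, an endocytic adaptor, changed by -0.47 ± 0.12. None of these values measures transporter protein or transport.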
